A study of Homo sapiens with 6 samples.

Results

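The intestinal lineage transcription factors examined here are *CDX1*, *CDX2*, *HNF4A*, *HNF4G*, *GATA6*, *KLF4*, *KLF5* and *FOXA2*. These 8 genes were chosen by name for their known roles in gut epithelium, with earlier results of these data known. Each was found under its own symbol among the 46427 genes of the deposited count table. RNA was sequenced from HCT116 cells, an established human colon carcinoma line. There were 3 libraries of the parental line with wild-type *ZKSCAN3* (*ZK3*-WT) and 3 libraries of a knockout line (*ZK3*-KO). In the knockout line both copies of *ZKSCAN3* had been disrupted by CRISPR/Cas9, with guides to its first exon. Both lines grew in DMEM with fetal bovine serum and received no other treatment. Per the methods, knockout cells were transfected, selected in puromycin and taken from single-cell clones, whereas the parental cells were not, so an effect of the edit cannot be told apart from a property of the clone. The sources describe biological triplicates without saying what separated them, and the p-values below measure the spread between these libraries.

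Transcription factors of this kind set the identity of the intestinal epithelium. The caudal homeobox proteins CDX1 and CDX2 and the nuclear receptors HNF4A and HNF4G act at enhancers of enterocyte genes such as those of the brush border. GATA6, a zinc finger protein of endoderm, is expressed mainly in crypts, and FOXA2 is a forkhead factor that opens chromatin in early endoderm. The Krüppel-like factors KLF4 and KLF5 bind similar GC-rich sites, and in the gut KLF5 is found in dividing crypt cells and KLF4 in differentiating cells nearer the lumen.

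None of the 8 genes showed a difference between the genotypes that exceeded the spread of the replicates. In bulk RNA, fewer cells that express a gene and less RNA per cell cannot be told apart. *CDX1* had no read in any library. *CDX2*, *HNF4A*, *HNF4G* and *GATA6* were present at low to moderate levels in both lines, *FOXA2* was barely detected, and *KLF4* and *KLF5* were the most abundant. *KLF4* had the largest difference, with a mean 2.07-fold that of *ZK3*-WT cells, but this mean rested mainly on *ZK3*-KO replicate 3. The ratio of *KLF4* to *KLF5*, picked after the values were seen and therefore given without a test, was higher in each *ZK3*-KO library than in any *ZK3*-WT library. Separation of this kind is common with 3 libraries each, as the genotypes did not overlap for 26.6% of all single genes tested.

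Libraries held between 60827060 and 69739215 counted reads. *ZK3*-KO replicate 3 stood apart from the others: the correlation of its log2 CPM (reads scaled to the library size) across genes was 0.963 and 0.9496 with the other *ZK3*-KO libraries, against 0.983 to 0.989 among all other pairs within a genotype. Results are therefore given with and without it. Wherever 3 values of a genotype follow each other, they stand for replicates 1, 2 and 3 in that order. The reads of *ZKSCAN3* itself ranged from 19.8 to 28.1 CPM in *ZK3*-WT and from 13.6 to 25.4 CPM in *ZK3*-KO libraries (log2 fold change -0.16, FDR 0.797 by edgeR). A CRISPR/Cas9 edit in an exon does not by itself remove reads, so this number does not check the labels. The epithelial origin was plain in the markers, as *KRT8*, *KRT18* and *KRT19* (keratins of simple epithelium, the first 2 with pseudogenes that may share their reads) averaged 1737, 1186 and 1003 TPM, and *EPCAM* averaged 339.7 TPM. TPM is the authors' length-scaled unit, which corrects for transcript length and depth, and is used wherever the levels of different genes are compared. Of 8 epithelial identity genes none passed by edgeR and 0 had an unadjusted p under 0.05, where 2.05% and 18.4% of all genes did. DESeq2 also called 0. Without *ZK3*-KO replicate 3 the tight junction genes *CLDN3* (-1.07, FDR 0.00755) and *CLDN4* (-1.02, FDR 0.00355) were lower in *ZK3*-KO cells. In that fit 7.73% of all genes were called lower.

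Promoter sequences are shown first for the members on which the comparison turns, namely *KLF4* and *KLF5*, the most abundant and compared as a ratio, and *CDX2* and *HNF4A*, the best known intestinal regulators of the set. From the RefSeq table of promoters, 7 windows were examined, which covered 5 of the 8 genes. Each had 250 bases before and 50 after a transcription start, and each was placed on GRCh37 by a single exact match. No window of *CDX1*, *HNF4G* or *FOXA2* was examined. Sequences run 5′ to 3′ along the strand of the gene. Capitals mark matches, on either strand, to short motifs of the factors themselves: CNATAAA for CDX, AGATAA for GATA, CAAAGTNCA for HNF4, TGTTTNC for FOXA and GGGNGNGGC for KLF. The counts pool both starts of *KLF5* and both starts of *HNF4A*, so both windows of each gene are given, and the upstream start of *HNF4A* is the P2 promoter while the downstream one is P1.

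*KLF4*, chr9:110252001-110252300, reverse strand: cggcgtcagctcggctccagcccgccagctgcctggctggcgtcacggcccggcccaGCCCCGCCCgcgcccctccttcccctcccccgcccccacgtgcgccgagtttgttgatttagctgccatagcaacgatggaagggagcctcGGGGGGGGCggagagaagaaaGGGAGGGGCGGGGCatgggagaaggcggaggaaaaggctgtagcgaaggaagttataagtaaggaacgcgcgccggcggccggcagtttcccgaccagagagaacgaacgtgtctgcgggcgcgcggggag
*KLF5*, upstream start, chr13:73628864-73629163, forward strand: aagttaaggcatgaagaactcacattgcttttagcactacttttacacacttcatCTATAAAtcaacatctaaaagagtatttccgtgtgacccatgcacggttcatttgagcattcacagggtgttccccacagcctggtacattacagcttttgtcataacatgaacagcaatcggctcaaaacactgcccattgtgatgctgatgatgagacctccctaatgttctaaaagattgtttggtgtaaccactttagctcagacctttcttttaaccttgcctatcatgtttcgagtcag
*KLF5*, downstream start, chr13:73632893-73633192, forward strand: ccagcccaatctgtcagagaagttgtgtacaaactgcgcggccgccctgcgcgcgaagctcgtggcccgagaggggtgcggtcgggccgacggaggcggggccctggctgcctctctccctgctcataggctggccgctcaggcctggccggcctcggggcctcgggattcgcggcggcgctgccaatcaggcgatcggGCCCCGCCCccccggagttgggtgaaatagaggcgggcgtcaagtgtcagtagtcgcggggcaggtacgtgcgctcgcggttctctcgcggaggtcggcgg
*CDX2*, chr13:28543403-28543702, reverse strand: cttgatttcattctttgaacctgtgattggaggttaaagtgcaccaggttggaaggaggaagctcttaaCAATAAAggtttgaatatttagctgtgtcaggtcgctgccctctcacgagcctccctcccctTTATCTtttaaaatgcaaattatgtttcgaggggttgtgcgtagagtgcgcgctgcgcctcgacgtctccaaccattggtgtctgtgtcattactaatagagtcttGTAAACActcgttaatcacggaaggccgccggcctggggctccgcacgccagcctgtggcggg
*HNF4A*, P2, chr20:42984089-42984388, forward strand: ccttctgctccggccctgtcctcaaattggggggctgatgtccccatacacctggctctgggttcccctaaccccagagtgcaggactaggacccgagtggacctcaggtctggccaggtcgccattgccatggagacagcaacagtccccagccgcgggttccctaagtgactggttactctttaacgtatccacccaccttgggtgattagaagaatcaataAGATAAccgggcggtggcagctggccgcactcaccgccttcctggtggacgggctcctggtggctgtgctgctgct
*HNF4A*, P1, chr20:43029629-43029928, forward strand: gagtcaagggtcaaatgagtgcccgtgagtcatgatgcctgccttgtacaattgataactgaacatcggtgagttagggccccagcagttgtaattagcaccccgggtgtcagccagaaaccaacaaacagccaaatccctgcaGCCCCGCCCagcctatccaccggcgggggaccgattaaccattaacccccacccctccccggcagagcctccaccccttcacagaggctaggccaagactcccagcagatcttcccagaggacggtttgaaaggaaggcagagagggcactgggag

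The *KLF4* window was 69% G and C and held 4 KLF matches, which began at positions -193, -102, -81 and -76 from the start, the last pair overlapping. A KLF match occurred in 30.6% of all 35116 promoter windows of that table. The downstream *KLF5* window (71.3% G and C) had 1 KLF match, and the upstream one (40.7% G and C) had none but held 1 CDX match, a motif found in 9.73% of windows. In the *CDX2* window there was 1 match each to the CDX, GATA and FOXA motifs, the latter 2 occurring in 10.3% and 18% of windows. For *HNF4A*, P2 had a GATA match that began at position -26 and P1 had a KLF match. The HNF4 motif, present in 1.1% of windows, was in none of them, and the *GATA6* window matched none of the motifs. Such matches describe letters in the window and not binding.

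The 8 genes covered a wide range of levels. Averaged over the 6 libraries, the order was *KLF5* (36.5 TPM), *KLF4* (32.2), *CDX2* (9.60), *GATA6* (4.63), *HNF4A* (4.45), *HNF4G* (2.50), *FOXA2* (0.133) and *CDX1* (0). Of the 28275 genes with at least 1 read, 86.6% lay below *KLF5*, 67.4% below *CDX2*, 55.0% below *HNF4G* and 31.6% below *FOXA2*. Not all neighbours in this order were separate. The ranges of *KLF5* (25.8 to 60.2 TPM) and *KLF4* (17.2 to 64.1 TPM) overlapped, and *KLF5* was the higher in 4 of 6 libraries. *GATA6* (3.25 to 6.40 TPM) and *HNF4A* (3.62 to 5.53 TPM) also overlapped, with *GATA6* higher in 4 libraries. *HNF4G* (1.10 to 3.91 TPM) overlapped the range of *HNF4A* but was below it in each of the 6 libraries. *CDX2* (8.35 to 11.01 TPM) shared its range with none of the others.

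**Figure D1:**
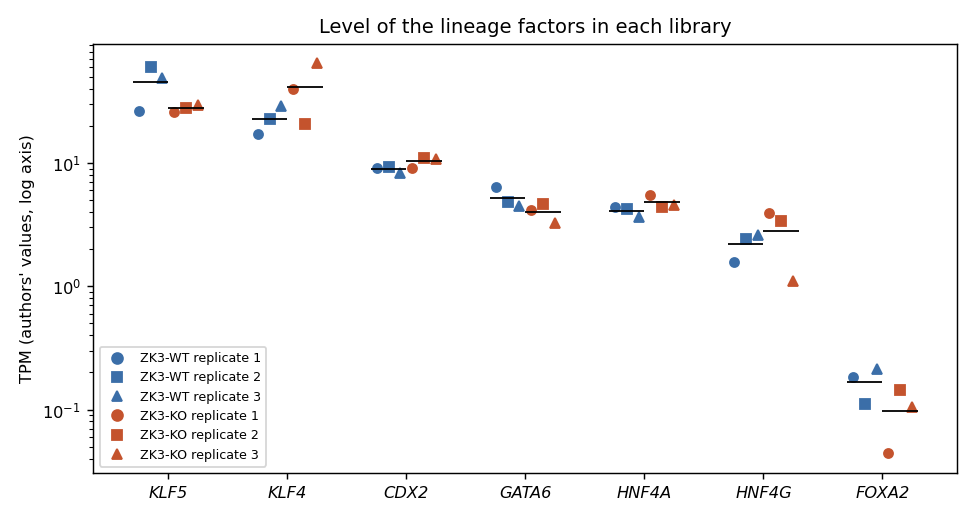
Level of each detected lineage factor in each library, as TPM on a log axis. Blue and orange points are *ZK3*-WT and *ZK3*-KO libraries, the marker shape gives the replicate and the black lines are group means (n = 3). *KLF4* and *KLF5* lie above *CDX2* in every library, and *CDX1*, at 0, cannot be drawn.

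*CDX1* (NCBI Gene 1044) is placed by GRCh37 on chromosome 5 from 149546341 to 149564121. With 0 reads in each of 6 libraries, a level of up to 0.0428 to 0.0485 CPM, the value of 3 reads in a library, is still allowed by counting error alone. Its paralog *CDX2* (NCBI Gene 1045, chromosome 13 from 28535055 to 28543452) gave 15.3, 14.7 and 13.8 CPM for the *ZK3*-WT libraries, against 15.0, 18.3 and 22.4 for *ZK3*-KO. The values of *ZK3*-WT cells lay within a narrow band, and *ZK3*-KO replicate 1 fell inside it while the others were above. Means were 14.6 ± 0.754 and 18.6 ± 3.72 CPM (SD, n = 3 each), and the log2 fold change was 0.34 (SE, the standard error, 0.19, 95% interval -0.09 to 0.78, FDR 0.378 by edgeR). *CDX4*, the remaining caudal gene, had no read in any library.

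Both HNF4 genes were transcribed. *HNF4A* (NCBI Gene 3172, chromosome 20 from 42984339 to 43061485) gave 10.9, 9.76 and 9.05 CPM for the *ZK3*-WT libraries, against 12.8, 10.3 and 13.4 for *ZK3*-KO. Replicates 1 and 3 of *ZK3*-KO cells were above all *ZK3*-WT libraries and replicate 2 was among them. The log2 fold change was 0.30 (SE 0.18, 95% interval -0.12 to 0.72, FDR 0.428 by edgeR). *HNF4G* (NCBI Gene 3174, chromosome 8 from 76320149 to 76479069) gave 3.28, 4.45 and 4.41 CPM for the *ZK3*-WT libraries. In the *ZK3*-KO libraries it had 6.80, 5.65 and 2.12 CPM, so the first 2 of these were the highest of all 6 libraries and the last was the lowest. Its log2 fold change was 0.26 (SE 0.41, 95% interval -0.70 to 1.23, FDR 0.780 by edgeR) and was 0.63 (FDR 0.0947) without *ZK3*-KO replicate 3 and -0.05 (FDR 0.974) without *ZK3*-KO replicate 1.

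In terms of TPM, *HNF4A* made up 73.4%, 63.7% and 58.2% of the HNF4 total in the *ZK3*-WT libraries and 58.5%, 56.3% and 80.6% in the *ZK3*-KO libraries. The lowest and the highest share both came from *ZK3*-KO cells. The log2 ratio of *HNF4A* to *HNF4G* averaged 0.92 ± 0.50 and 0.97 ± 0.94 (SD, n = 3 each), a ratio described here without a test because it was chosen after the values were seen.

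*GATA6* (NCBI Gene 2627, chromosome 18 from 19749550 to 19782491) gave 11.1, 8.07 and 7.71 CPM for the *ZK3*-WT libraries, against 7.27, 8.13 and 7.06 for *ZK3*-KO. Apart from *ZK3*-WT replicate 1, all libraries lay close together and the groups overlapped. A log2 fold change of -0.26 was found (SE 0.21, 95% interval -0.75 to 0.22, FDR 0.550 by edgeR), which shrank to -0.08 when *ZK3*-WT replicate 1 was left out.

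*FOXA2* (NCBI Gene 3170, chromosome 20 from 22561636 to 22566093) gave 15, 10 and 18 reads for the *ZK3*-WT libraries, against 4, 13 and 10 for *ZK3*-KO. The counts of the groups overlapped, with *ZK3*-KO replicate 1 the lowest. At this depth a difference is hard to detect, and the log2 fold change was -0.62 with a 95% interval from -1.88 to 0.63 (FDR 0.586 by edgeR).

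*KLF4* (NCBI Gene 9314, chromosome 9 from 110247133 to 110252763) gave 24.3, 30.7 and 40.7 CPM for the *ZK3*-WT libraries. The *ZK3*-KO libraries had 56.0, 29.5 and 113 CPM. Replicate 2 was inside the range of *ZK3*-WT cells, while replicates 1 and 3 were above it, and replicate 3 was the highest of all libraries. Means were 31.9 ± 8.24 CPM in *ZK3*-WT and 66.1 ± 42.6 CPM in *ZK3*-KO cells (SD, n = 3 each). The log2 fold change was 1.05 (SE 0.45, 95% interval -0.01 to 2.11, FDR 0.276 by edgeR), and it was 0.42 (FDR 0.337) without *ZK3*-KO replicate 3.

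*KLF5* (NCBI Gene 688, chromosome 13 from 73629114 to 73651679) gave 42.5, 93.0 and 77.7 CPM for the *ZK3*-WT libraries, against 41.5, 45.2 and 58.9 for *ZK3*-KO. *ZK3*-WT replicate 1 lay with the *ZK3*-KO libraries, whereas its other two replicates were the highest of the 6. Means were 71.1 ± 25.9 and 48.5 ± 9.17 CPM (SD, n = 3 each), and the log2 fold change was -0.55 (SE 0.29, 95% interval -1.23 to 0.13, FDR 0.368 by edgeR). Without *ZK3*-WT replicate 1 it was -0.82 (FDR 0.176), and without *ZK3*-WT replicate 2 it was -0.31 (FDR 0.801).

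Counted together, 0 of the 7 tested lineage factors passed the FDR threshold of 0.05 with edgeR, where 2.05% of all 18366 tested genes did (0.817% higher and 1.23% lower in *ZK3*-KO cells). None had an unadjusted p under 0.05 in that test, which 18.4% of all genes had, and DESeq2 and limma called none of them. Without *ZK3*-KO replicate 3 the count was again 0, against 15.1% of all genes (7.41% higher and 7.73% lower). In all 7 the CPM values of the genotypes overlapped, while they did not for 26.6% of all genes. The median log2 fold change of the 7 genes was 0.26, beside 0.02 over all genes tested. On the log2 scale the 95% intervals reach up to 2.11 for *KLF4* and 1.23 for *HNF4G*. They reach down to -1.88 for *FOXA2* and -1.23 for *KLF5*, so the test does not show equal levels.

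**Figure D2:**
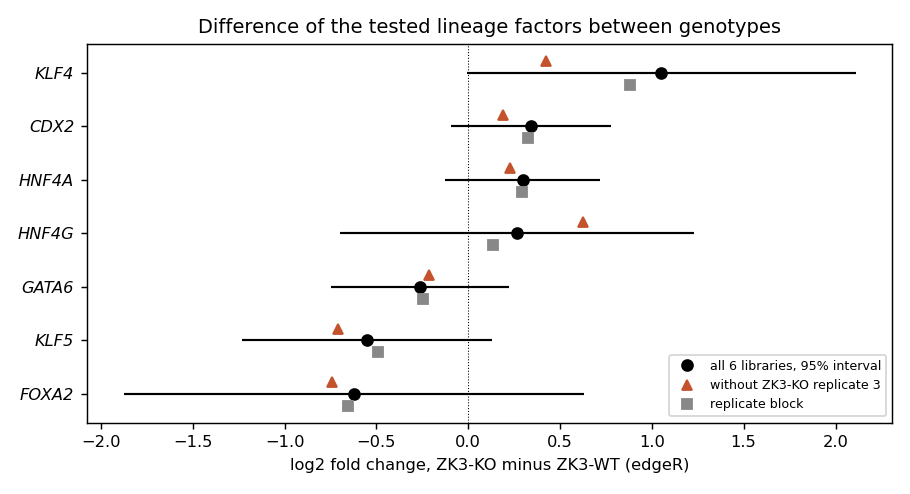
Log2 fold change (*ZK3*-KO minus *ZK3*-WT) of the 7 tested lineage factors in edgeR's model. Black points with lines are the estimates and 95% intervals from 6 libraries, triangles leave out *ZK3*-KO replicate 3 and squares add the replicate number as a block, and each of the 7 intervals includes 0.

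The 2 Krüppel-like factors were also compared with each other inside each library. *KLF4* made up 39.3%, 27.2% and 37.2% of the summed TPM of both genes in the *ZK3*-WT libraries, so *KLF5* was the more abundant throughout. In the *ZK3*-KO libraries the share of *KLF4* was 60.5%, 42.6% and 68.6%, and each of these lay above all *ZK3*-WT libraries. For single genes, the CPM values of the genotypes did not overlap in 26.6% of all genes tested. The log2 ratio of *KLF4* to *KLF5* averaged -0.93 ± 0.42 in *ZK3*-WT and 0.44 ± 0.79 in *ZK3*-KO cells (SD, n = 3 each), a difference of 1.37. No test is given, since the pair was chosen after its values were seen. Without *ZK3*-KO replicate 3 the difference was 1.03.

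**Figure D3:**
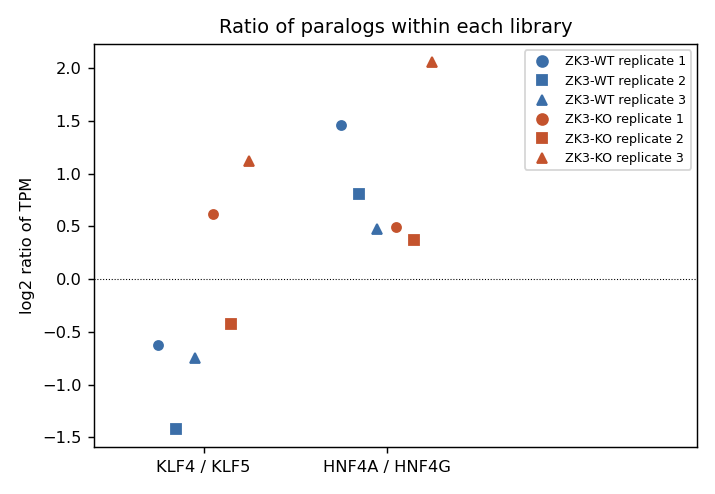
Log2 ratio of TPM of *KLF4* to *KLF5* and of *HNF4A* to *HNF4G* in each library. The *KLF4* to *KLF5* ratio of the *ZK3*-KO libraries (orange) lies above that of the *ZK3*-WT libraries (blue), and the *HNF4A* to *HNF4G* ratios overlap, with *ZK3*-KO replicate 3 the highest.

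Proliferation genes (*MCM2* to *MCM7*, *PCNA*, *MKI67* and *TOP2A*) also differed between libraries of one genotype. Relative to the *ZK3*-WT mean, the median log2 level of these 9 genes was 0.37, -0.22 and -0.14 in the *ZK3*-WT libraries and 0.94, 1.45 and -0.53 in the *ZK3*-KO libraries. *ZK3*-KO replicate 3 thus had the lowest proliferation level, the most *KLF4* and the least *HNF4G*. *ZK3*-KO replicate 2 had the highest proliferation level, with *KLF4* inside the range of *ZK3*-WT cells. *ZK3*-KO replicate 1 came next after it in proliferation, and had the most *HNF4G* and more *KLF4* than any library but *ZK3*-KO replicate 3. Among the *ZK3*-WT libraries, replicate 1 had the highest proliferation level, with the least *KLF4* and also the least *HNF4G*. The part of proliferation in the values of *KLF4* and *HNF4G* was not tested. All 9 genes had a log2 fold change above 0, and none passed by edgeR, where 2.05% of all genes did. At an unadjusted p under 0.05 there was 1, *PCNA*, beside 18.4% of all genes, and DESeq2 called 0. Without *ZK3*-KO replicate 3, 8 passed, all of them higher, beside 15.1% of all genes (7.41% higher in *ZK3*-KO cells). The replication factors *PCNA* (1.26, FDR 0.248), *MCM5* (1.14, FDR 0.286), *MCM7* (0.66, FDR 0.446) and *MCM3* (0.56, FDR 0.474) did not pass with 6 libraries.

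The paralogs of the lineage factors were examined next, and the KLF genes were set apart from the others after their values were seen. Of 13 tested KLF genes other than *KLF4* and *KLF5*, 11 had a log2 fold change below 0, and for 9 of the 13 (69.2%) every *ZK3*-KO library lay under every *ZK3*-WT library, which was the case for 13.8% of all genes. Their median was -0.59, and it was -0.65 without *ZK3*-KO replicate 3 and -0.36 without *ZK3*-KO replicate 2. No KLF gene passed an FDR of 0.05 by edgeR with 6 libraries (6 of 13 had an unadjusted p under 0.05, beside 18.4% of all genes). In other fits 3 passed with DESeq2 (1506 over all genes), 1 with the replicate block (461 over all genes) and 6 without *ZK3*-KO replicate 3 (15.1% of all genes). *KLF14* (0.54, FDR 0.640) was below 0 only in the last of these fits, and *KLF16* (0.09, FDR 0.893) was also below 0 when scaled by library totals (-0.01), in limma's model (-0.04) and without *ZK3*-WT replicate 1 (-0.09).

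*KLF10*, an early response gene of TGF-β signalling, was the most abundant KLF gene at 80.6 TPM. It gave 111, 155 and 162 CPM for the *ZK3*-WT libraries, against 95.8, 78.1 and 91.0 for *ZK3*-KO. All *ZK3*-KO values were lower, with a log2 fold change of -0.69 (SE 0.19, FDR 0.119 by edgeR; -0.71 and FDR 0.0383 without *ZK3*-KO replicate 3). *KLF6* (43.1 TPM), a widely expressed member, had a log2 fold change of -0.61 (FDR 0.139; 0.0395 without that library).

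*KLF2*, known from endothelium and T cells, had the largest difference among KLF paralogs. It gave 42.0, 42.7 and 58.9 CPM for the *ZK3*-WT libraries, against 17.6, 13.4 and 36.3 for *ZK3*-KO. The groups did not overlap, although replicate 3 was the highest in both. The log2 fold change was -1.09 (SE 0.37, FDR 0.184 by edgeR), and it passed with the replicate number as a block (-1.21, FDR 0.0435) and without *ZK3*-KO replicate 3 (-1.62, FDR 0.00268).

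**Figure D4:**
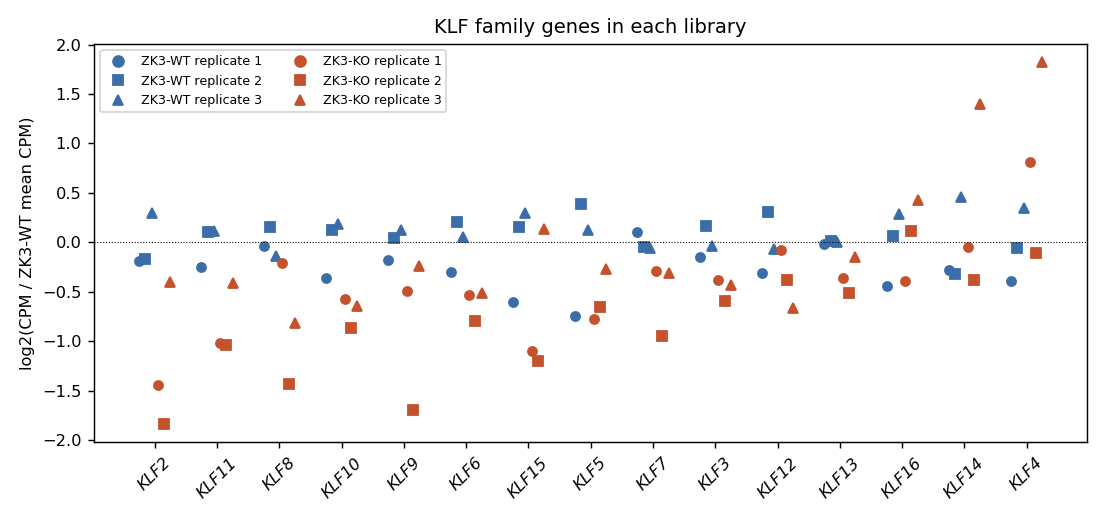
Log2 of CPM divided by the *ZK3*-WT average for the 15 tested KLF genes in each library, ordered by log2 fold change. Orange *ZK3*-KO points lie under all blue *ZK3*-WT points for 9 genes, and *KLF4* at the right end has its highest value in *ZK3*-KO replicate 3.

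Both FOXA paralogs were more abundant than *FOXA2*. *FOXA1*, which shares its binding site with FOXA2, gave 1.59, 1.63 and 1.201 CPM for the *ZK3*-WT libraries, against 4.63, 8.25 and 3.33 for *ZK3*-KO. Every *ZK3*-KO library was above all *ZK3*-WT libraries. The log2 fold change was 1.88 (SE 0.37), with an FDR of 0.0543 by edgeR, just short of the threshold. It passed with the replicate block (1.79, FDR 0.0290), with DESeq2 and without *ZK3*-KO replicate 3 (2.13, FDR 0.00344), and the FDR reached 0.245 in the other alternatives. *FOXA3* had a log2 fold change of 0.53 (FDR 0.296). Among the GATA factors, *GATA4* and *GATA5*, the relatives of *GATA6* in the gut, had at most 4 and 2 reads in a library. *GATA2* (-0.19, FDR 0.721) and *GATA3* (0.15, FDR 0.835), known from blood cells, were detected in both lines. In all, 0 of 17 tested paralogs passed by edgeR, and their median log2 fold change was -0.47. At an unadjusted p under 0.05 there were 7, a share to be read beside the 18.4% of all genes. DESeq2 called 4 of the paralogs, and 1506 over all genes.

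Among 33 other transcription factors of the gut, 20 were tested, and 2 passed an FDR of 0.05, beside 2.05% of all genes tested. *SOX9*, a factor of crypt stem and Paneth cells, gave 173, 212 and 184 CPM for the *ZK3*-WT libraries, against 74.1, 59.7 and 66.1 for *ZK3*-KO. The groups were far apart, and *SOX9* decreased by 1.51 on the log2 scale (SE 0.16, FDR 0.00697 by edgeR). *PPARG*, a fatty acid receptor of differentiated colonocytes, rose from 18.7, 23.4 and 21.6 CPM to 50.2, 64.2 and 56.5 CPM, a log2 fold change of 1.42 (SE 0.16, FDR 0.00977). Their direction was the same in each of the 12 alternatives, in which *SOX9* passed in 10 and *PPARG* in 9. *PPARG* had an FDR above 0.05 without *ZK3*-WT replicate 1, 2 or 3, and *SOX9* without *ZK3*-WT replicate 2 or 3.

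Other factors of this list did not pass. *NR5A2*, an orphan receptor of crypts, had a log2 fold change of 1.47 (FDR 0.108 by edgeR) and was higher in all *ZK3*-KO libraries than in any *ZK3*-WT library. It passed with DESeq2 and without *ZK3*-KO replicate 3 (FDR 0.00296 by edgeR). *ELF3*, an epithelial ETS factor (53.9 TPM), had a log2 fold change of 0.42 (FDR 0.646). *ISX*, *ASCL2*, *NEUROG3*, *INSM1* and *NKX2-2* had no read. The median of the 20 genes was 0.26, 11 had an unadjusted p under 0.05 (18.4% of all genes tested did) and 12 were above 0.

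Genes of the absorptive lineage, among them known targets of CDX2 and HNF4A, were mostly without reads or close to it in both lines. Of 42 such genes, 11 had no read in any library, among them the fatty acid binding protein genes *FABP1* and *FABP2*, *GUCY2C* and *CEACAM5*. Others had too few reads to be tested, including *CDH17*, a cadherin activated by CDX2, with at most 8 reads in a library, the microvillus gene *VIL1* with at most 7, *LGALS4* with at most 32 and the sucrase gene *SI* with at most 3. The remaining 12 were tested, and the median log2 fold change of these was -0.12. By edgeR 1 passed (2.05% of all genes did) and 4 had an unadjusted p under 0.05 (18.4% of all genes did). The summed TPM of the list was 48.9, 45.8 and 43.5 in the *ZK3*-WT libraries and 84.8, 88.8 and 42.5 in the *ZK3*-KO libraries. Such a sum is weighted to the most abundant genes and does not describe the list as a whole. Of the 12 tested genes, 6 had a log2 fold change above 0 and 6 below.

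*DPP4*, a brush border peptidase, was the one absorptive gene that passed. It gave 9.08, 6.82 and 6.52 CPM for the *ZK3*-WT libraries, against 22.7, 25.7 and 15.6 for *ZK3*-KO, and the groups did not overlap. The log2 fold change was 1.51 (SE 0.24, FDR 0.0283 by edgeR), and it passed in 6 of 12 alternatives. It did not pass in limma's model or when any 1 library other than *ZK3*-KO replicate 3 was left out, with FDR values up to 0.177. *CA2*, a carbonic anhydrase of surface colonocytes, gave 13.6, 8.60 and 9.61 CPM for the *ZK3*-WT libraries, against 36.5, 42.3 and 12.7 for *ZK3*-KO. The last of these fell among the *ZK3*-WT values, and the log2 fold change was 1.52 (FDR 0.129, and 0.00117 without that library). *LCT*, the lactase gene, had a log2 fold change of 2.23 (FDR 0.0916) and the glucose transporter gene *SLC5A1* one of -2.17 (FDR 0.196), both at under 2 CPM. These also passed without that library (FDR 0.0109 and 0.00581), a fit in which 15.1% of all genes passed. *USH1C*, a microvillus scaffold gene (20.2 TPM), had a value of -0.25 (FDR 0.496).

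Secretory genes were likewise sparse. Of 20 genes, 8 had no read, including the goblet cell genes *TFF3* and *AGR2*, and 7 were tested with a median log2 fold change of 0.35. Of these 7, 1 passed by edgeR and 1 had an unadjusted p under 0.05, beside 2.05% and 18.4% of all genes. *FCGBP*, a mucus protein gene of goblet cells, gave 16.2, 22.5 and 23.6 CPM for the *ZK3*-WT libraries, against 42.7, 40.0 and 60.8 for *ZK3*-KO. It was the one gene of the list that passed (log2 fold change 1.202, SE 0.23, FDR 0.0473 by edgeR), and it did so in 4 of 12 alternatives. Leaving out any 1 library other than *ZK3*-KO replicate 3 gave FDR values above the threshold, up to 0.209. *MUC2*, the main intestinal mucin and a known CDX2 target, was at 0.185 to 0.342 CPM in all libraries (0.35, FDR 0.673). *AVIL* (0.66, FDR 0.460), *PYY* (0.86, FDR 0.521) and *MMP7* (-1.57, FDR 0.297) did not pass.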

How the data were processed

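RNA-seq of 3 *ZK3*-WT and 3 *ZK3*-KO libraries of HCT116 cells was examined from 1 deposited table. The authors prepared stranded mRNA libraries with 150 bp paired-end reads and aligned them to hg19, and the submitters' processing notes name Bowtie2 2.2.5. The table deposited by the authors holds raw read counts, FPKM and TPM for each library and gene. Its gene identifiers are those of NCBI Gene, whereas the methods name an Ensembl annotation, and whether counting used strand is not given in the sources used here, so reads of overlapping or antisense genes may be shared.

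Counts were tested in edgeR 4.0.16 (R 4.3.3) with filterByExpr (minimum 10 reads), TMM scaling and the quasi-likelihood test, with Benjamini-Hochberg adjustment over all genes tested (FDR, threshold 0.05). Standard errors and 95% intervals come from the same model. CPM values are TMM-scaled, and fold changes are *ZK3*-KO over *ZK3*-WT. DESeq2 1.42.0 and limma 3.58.1 on log2(TPM + 1), library totals without TMM, no filter, 10 reads in every library, a replicate block and each library left out in turn were alternatives. The intervals rest on the spread between libraries, and the floor of 3 reads for *CDX1* covers counting error only.

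Members and gene lists were chosen with earlier results of these data known. The text names all 8 members, their noncoding neighbours, *ZKSCAN3*, genes of a list past the threshold, the 3 most abundant genes of each list and the 2 with the largest fold change, except that some genes of the other gut transcription factors are not reported here. *FOXA3*, *GATA2*, *GATA3*, *KLF14*, *NR5A2*, *MUC2*, *EPCAM* and genes cited for low reads were named, and the *KLF4* to *KLF5* and *HNF4A* to *HNF4G* ratios were added, after values were seen. The lists held paralogs, other gut transcription factors, absorptive, secretory, gastric, hepatocyte, epithelial, non-epithelial and proliferation genes. Deviations from the group means correlated between number-matched libraries (r 0.29, 0.11 and 0.45 for numbers 1, 2 and 3, across genes, against -0.34 to 0.21 for different numbers). This check does not establish a pairing, as number 2 (0.11) lay below the highest r of different numbers (0.21). Deviations from a group mean also cancel out for each gene, so these r values are tied to each other. The labels do not say what a number marks. The tests reported are unpaired, with the blocked value given where it changes a call. Gene positions are from GENCODE v44 lifted to GRCh37, and promoters from the RefSeq table of GRCh38.p14.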

Additional observations from a re-analysis of the deposited data

How the results depend on the processing

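None of the 7 tested lineage factors passed an FDR of 0.05 in any of the 12 alternatives, and 82 of their fold changes kept direction. *HNF4G* was the exception, at -0.045 without *ZK3*-KO replicate 1 (-0.045 to 0.63 with 1 library left out). Over all genes 376 passed, 1506 with DESeq2, and 49 to 2858 with 1 library left out, the highest without *ZK3*-KO replicate 3. Replicate block: 2 paralogs passed (*FOXA1* and *KLF2*) where 0 did unpaired, and it changed no other call among the lists. DESeq2 called 4 paralogs, 7 other gut factors and 3 absorptive genes, against 0, 2 and 1. The absorptive count was 0 with limma, and the secretory count, 1, was 0 with all genes with a read, with 10 reads in every library and with limma. With 1 library left out, counts were 0 to 7 for paralogs and for other gut factors, 0 to 4 absorptive, 0 to 1 secretory, hepatocyte and non-epithelial, 0 to 2 epithelial and 0 to 8 proliferation genes. The causes were not tested.

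Directions of some genes reversed. With library totals *KLF16* was at -0.0071, and with limma *KLF16* was at -0.044, *KRT18* at -0.049 and *COL1A1* at -0.032. With 1 library left out, log2 fold changes ran from -0.29 to 0.086 for *ZKSCAN3*, -0.11 to 0.28 for *KLF16*, -0.84 to 0.23 for *GATA6-AS1*, -0.15 to 0.74 for *ELF3*, -1.33 to 0.21 for *SOX2*, -0.14 to 0.32 for *KRT8*, -0.36 to 0.39 for *KRT18*, -0.54 to 0.23 for *KRT19* and -0.31 to 0.54 for *COL1A1*. Few reads limit *FOXA2* and *CDX1*.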

Other observations

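Genes of neighbouring endodermal tissues that share these factors were nearly absent. Of 10 gastric genes 6 had no read and *PGC* and *BARX1* had at most 8 and 9 in a library. Only *SOX2* was tested (log2 fold change -0.65, FDR 0.690 by edgeR). Of 10 hepatocyte genes, 3 had no read, 3 were tested and *AMBP* had at most 17 reads in a library. *SERPINA1*, the antitrypsin gene, which is also expressed in gut, gave 5.17, 7.43 and 7.97 CPM for *ZK3*-WT replicates 1, 2 and 3, against 2.06, 1.10 and 7.53 for *ZK3*-KO (-0.95, FDR 0.480, and -2.12, FDR 0.00613, without *ZK3*-KO replicate 3). *ALB*, the albumin gene, had a log2 fold change of 1.30 (FDR 0.207) and *F2*, the prothrombin gene, one of 0.97 (FDR 0.627).

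Among 10 genes of non-epithelial cells, *PTPRC* and *CD3E* had no read, and the collagen gene *COL1A1* gave 52.5, 44.2 and 56.3 CPM for *ZK3*-WT replicates 1, 2 and 3, against 49.7, 32.2 and 98.8 for *ZK3*-KO (0.24, FDR 0.779 by edgeR). *DES*, the desmin gene, had a log2 fold change of -0.47 (FDR 0.573, and -1.02, FDR 0.0347, without *ZK3*-KO replicate 3) and *VWF*, an endothelial gene, one of -0.81 (FDR 0.351). *HBB*, a globin gene, had 177 reads in *ZK3*-KO replicate 2 and at most 3 in each other library.

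The noncoding neighbours of the lineage factors were nearly without reads. *HNF4A-AS1* had none, *LINC00261*, beside *FOXA2*, had at most 4 in a library, and *GATA6-AS1* had a log2 fold change of -0.48 (FDR 0.723).

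Among 13149 genes of at least moderate level, those whose log2 CPM followed *KLF4* most closely over the 6 libraries were *ZC3H4* (Pearson r 0.996), *LOC112268131* (0.994) and *SNAI1* (0.991), and 80 genes had r above 0.95. All points share the same 6 libraries, and *ZK3*-KO replicate 3 had the highest *KLF4*.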
